A study of Danaus plexippus with 48 samples.

Results

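The genes described here were the 300 with the longest genomic span among the brain-expressed genes of the monarch butterfly, Danaus plexippus. Span is the distance from the first to the last base of a gene's locus, and it ranked the 10405 of 15130 deposited genes whose FPKM (fragments relative to transcript length and to the mapped reads of the library) averaged at least 2 across all 48 libraries. Within this rule the measured levels entered only through that minimum, but the rule was chosen with earlier results of these data known. Of the 300 longest spans of the whole table, 224 reached the minimum, and the remaining places went to the next longest genes that did. Of the 300 long-span genes, 260 had a mean FPKM of 2 or more in each of the 3 groups of the study, while 35 were under 2 in SP, 2 in LP and 5 in Migrant.

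The libraries were made from pools of 3 wild-type brains from which the pigmented photoreceptor layer of the retina had been removed. LP (long photoperiod) and SP (short photoperiod) butterflies were raised in the laboratory, LP in days with 15 h light and 9 h dark and SP in days with 10 h light and 14 h dark. Migrant butterflies were caught in the wild in autumn and kept in days with 11 h light and 13 h dark. All were held at 21 degrees C and entrained for at least 7 days. Of the 16 libraries per group, a pair was collected at each of 8 zeitgeber times (ZT, hours after lights-on). Replicate 1 was labelled female in LP and Migrant and male in SP, so that within a group replicate number and labelled sex are the same split. LP and SP libraries were made at a single facility with a TruSeq kit and Migrant libraries with a NEBNext kit, so that for Migrant the effects of kit, wild origin and season cannot be told apart. Per the labels, libraries were mixed in sets of 16 for sequencing, and which libraries shared a set is not stated. A set is the size of a group, so if each group was sequenced as a set, sequencing run and group cannot be told apart, for SP and LP too. Ages are not given in the labels, and no source used here says whether the 2 pools of a time came from separate rearings, so p-values measure the spread between these pools.

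A long span comes mostly from introns, which are transcribed and then spliced out. In insects as in mammals, genes with long introns are frequent among those that act in neurons, such as genes for ion channels, cell adhesion molecules and synaptic proteins, and among developmental regulators. The deposited gene identifiers could not be paired with names here, so no role is given for any gene, and the brain origin of the samples could not be checked against marker genes.

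Reads in genes ranged from 7.30 to 10.6 M in LP, 5.47 to 9.46 M in SP and 5.75 to 7.71 M in Migrant (M, 1e6 reads), and no 2 of the 48 libraries held identical values. The 10 most-read genes of a library took 6.99% to 7.64% of its reads in LP, 8.30% to 12.0% in SP and 5.87% to 9.17% in Migrant. The highest Migrant value was that of ZT22 replicate 1, which stands apart from the other Migrant libraries below.

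The long-span genes covered 26880 to 331231 bases, with a median of 36196 bases and quartiles of 30478 and 52275. The other genes that reached the FPKM minimum had a median span of 3257 bases, a ratio of 11.1 between the medians. Only 16 long-span genes reached 100 kb. The longest, DPOGS200710, lay on scaffold DPSCF300030 from 752304 to 1083535, and the second, DPOGS215753, spanned 220245 bases on DPSCF300041 from 1032972 to 1253217. At the threshold, DPOGS210690 spanned 26880 bases (rank 300) and DPOGS200528, the first gene left out, 26869. Levels in those genes on either side of the threshold were 72.7 ± 7.79 FPKM in LP and 22.9 ± 11.2 in SP for DPOGS210690, and 12.0 ± 0.668 and 3.34 ± 1.58 for DPOGS200528 (SD, n = 16 each). Positions are printed as deposited, and no source used here names their genome build.

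Several properties that the ranking did not use went with a long span. Transcript length, recovered from the number of reads behind each FPKM and given relative to the median gene, had a median of 2.55 in the 297 long-span genes where it could be recovered and 0.978 in the other genes. This length is implied by the deposited values and was not measured. It went down to 1.55e-04 in the other genes, too low for a real transcript, so low values are not to be read as lengths. By this measure, transcripts were nevertheless shorter than that of the median gene in 63 long-span genes. Across the genes that reached the minimum, span and transcript length had a Spearman rho of 0.69, and span and mean FPKM one of -0.23. The long-span genes were expressed at lower levels, with a median mean FPKM of 13.3 against 22.7 in the other genes. They still held more reads, with a median of 447 per library against 255. Transcript length was computed from these reads and FPKM, so it is not independent of them.

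Most long-span genes were detected throughout: 286 of 300 had a value above 0 in all 48 libraries, and 12 averaged under 10 reads per library. They lay on 189 scaffolds, 125 of which carried a single one, and the scaffold with most, DPSCF300001, carried 10 among its 313 genes that reached the minimum. The locus of 74 long-span genes (24.7%) overlapped that of another gene, against 3.65% of the other genes. DPOGS215753 overlapped 8 other loci. Reads in such regions could have been assigned to either gene, so the overlapping genes are also described separately.

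The comparison of SP with LP asked how brain expression differs between short and long days, and the long-span genes were lower in SP in most cases. Of 300 long-span genes, 253 were lower in SP, 29 were higher and 18 did not pass the test (limma, adjusted p under 0.05 over 11630 genes). Over all tested genes, 40.8% were lower and 39.2% higher, and among other genes matched for mean FPKM 44.8% were lower and 36.6% higher. Of the 260 that averaged at least 2 FPKM in each group, and so did not depend on a single group to reach the minimum, 216 were lower and 26 higher. The median log2 fold change of the long-span genes was -1.21, with quartiles of -1.80 and -0.52, against -0.09 in the matched genes and near 0 over all tested genes. A fall of at least 2-fold was found in 175 long-span genes and a rise of that size in 6, where the matched genes had 23.2% and 4.99%. These fold changes are on the scale of log2(FPKM + 1), which understates the change of genes with low levels. In samples of whole brains, fewer cells of a type and less RNA per cell cannot be told apart.

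The direction was mostly the same around the clock. Of the 300, 248 (82.7%) were lower in SP at each of the 8 times and 24 (8.0%) were higher at each, where 42.8% and 32.8% of the matched genes were. The levels of the 16 SP libraries lay wholly below those of the 16 LP libraries in 194 long-span genes and wholly above in 8. Of all tested genes, 21.4% were separated in this way downward and 18.5% upward. The difference between the long-span and the matched medians was smallest at ZT22, at -0.99, and largest at ZT10, at -1.25.

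The long-span genes with the largest falls from LP to SP were DPOGS214814 and DPOGS207937. DPOGS214814 (DPSCF300059, 619636 to 654063) was at 25.1 to 37.5 FPKM in LP, with a median of 32.4, and at 0.384 to 4.32 in SP, with a median of 1.96. No SP library reached the lowest LP library, and the log2 fold change was -3.50 ± 0.15 (SE, limma adjusted p = 6.22e-17), on 11.7 reads per SP library. DPOGS207937 (DPSCF300090, 406587 to 433743) was at 23.4 to 37.3 FPKM in LP, with a median of 31.1, and at 0.712 to 5.002 in SP, with a median of 1.94. Again the groups did not overlap, and the log2 fold change was -3.41 ± 0.15 (limma adjusted p = 1.21e-16).

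The largest rises were smaller. DPOGS201450 (DPSCF300006, 587337 to 617007) was at 1.85 to 12.1 FPKM in LP, with a median of 3.11, and at 6.41 to 76.3 in SP, with a median of 14.8. The groups overlapped, and the log2 fold change was 1.76 ± 0.23 (limma adjusted p = 9.57e-08), on 19.6 reads per LP library. The 76.3 was that of SP ZT10 replicate 1, where replicate 2 was at 12.6. DPOGS205231 (DPSCF300265, 156741 to 184231) was at 2.65 to 7.89 FPKM in LP, with a median of 6.03, and at 11.9 to 28.6 in SP, with a median of 16.5. Every SP library of DPOGS205231 was above every LP library, and the log2 fold change was 1.51 ± 0.13 (limma adjusted p = 3.21e-11).

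The genes with the very longest spans followed the majority. DPOGS215753 was at 139 to 178 FPKM in LP, with a median of 159, and at 4.64 to 45.6 in SP, with a median of 16.0. Its level in SP was below every LP library, and its log2 fold change was -3.30 ± 0.22 (limma adjusted p = 5.08e-13), although its locus overlaps other genes. DPOGS200710 was at 5.35 to 8.58 FPKM in LP, against 1.16 to 4.25 in SP, also without overlap, and its log2 fold change was -1.07 ± 0.11 (limma adjusted p = 9.49e-10).

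Within the 300, the fall differed little with span. The median log2 fold change was -1.05 in the 75 shortest of them, -1.20 and -1.34 in the next 2 sets of 75 and -1.12 in the 75 longest. It was -0.95 in the 75 with the shortest transcripts, of which 54 were lower, and -1.40 in the 74 with the longest, of which 68 were. Long-span genes whose locus overlapped another had a median of -0.80, with 50 of 74 lower, and those without overlap had a median of -1.32, with 203 of 226 lower. The 20 long-span genes with under 20 reads per library had a median of -1.33.

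Across the table the fold change went with span. When the 10405 genes were cut into 10 equal groups by span, the median log2 fold change from LP to SP was 0.27, 0.39, 0.34, 0.28 and 0.21 in the 5 groups of shorter span. It was 0.10, -0.11, -0.21, -0.51 and -0.96 in the 5 groups of longer span, the last of which holds the 300 long-span genes. Without them, the 741 other genes of that group had a median of -0.82. The 300 genes that followed the long-span genes in rank had a median of -0.94. The medians thus went down over the groups of longer span, and that of the long-span genes was the lowest of those given.

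**Figure D1:**
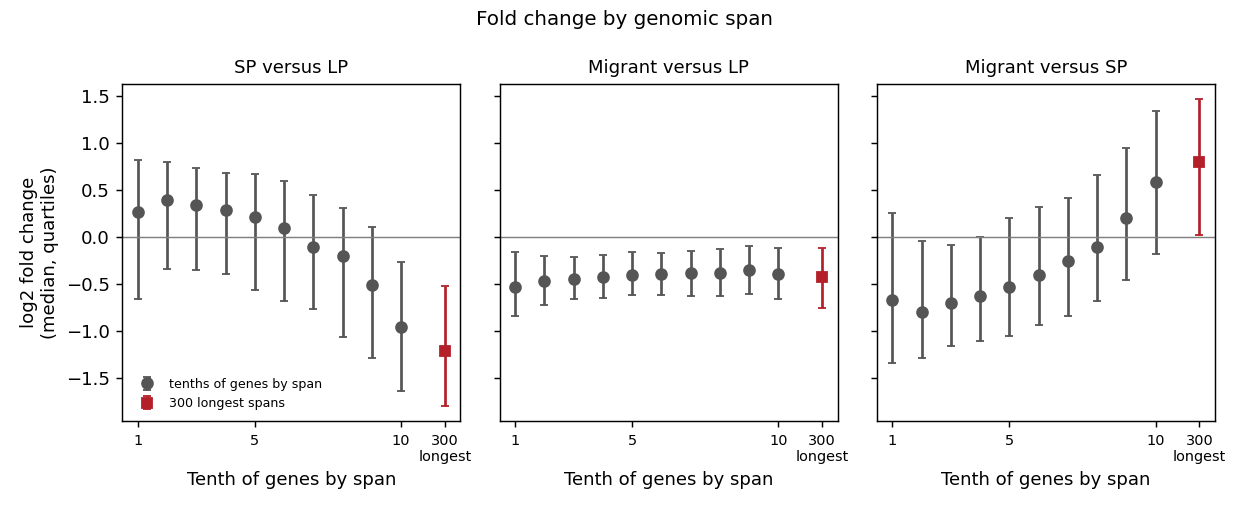
Median log2 fold change (points) with quartiles (bars) in 10 equal groups of genes by genomic span (group 1 is the shortest and group 10 includes the 300 longest) and in the 300 longest spans alone (squares), for SP versus LP, Migrant versus LP and Migrant versus SP. From LP to SP the medians run from 0.27 in the shortest group to -0.96 in the longest and -1.21 in the 300 longest spans, while from LP to Migrant they stay between -0.53 and -0.35.

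Because long-span genes have long transcripts, span and transcript length were also set apart. Genes were cut into 5 equal groups by transcript length. From the shortest to the longest transcripts, the long-span genes had median log2 fold changes of -0.77 (25 genes), -1.16 (22), -0.97 (33), -1.03 (51) and -1.41 (166). The other genes of the same 5 groups had medians of 0.17, 0.26, 0.18, -0.06 and -0.42, and those in the shorter range of spans, below the median of all genes, had 0.30, 0.41, 0.33, 0.15 and -0.16. Long-span genes were thus below the others at each transcript length, and within the others the longest transcripts had the lowest medians. Across genes, the Spearman rho of the fold change was -0.33 with span and -0.22 with transcript length. Over the 10257 genes with both measures, the partial rank correlation was -0.26 for span given transcript length and 0.05 for transcript length given span. These are correlations across genes, which share libraries and are not independent replicates. With the other genes matched for transcript length as well as mean FPKM, the long-span median differed by -0.96 on the log2 scale, against -1.12 with matching for mean FPKM alone.

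**Figure D2:**
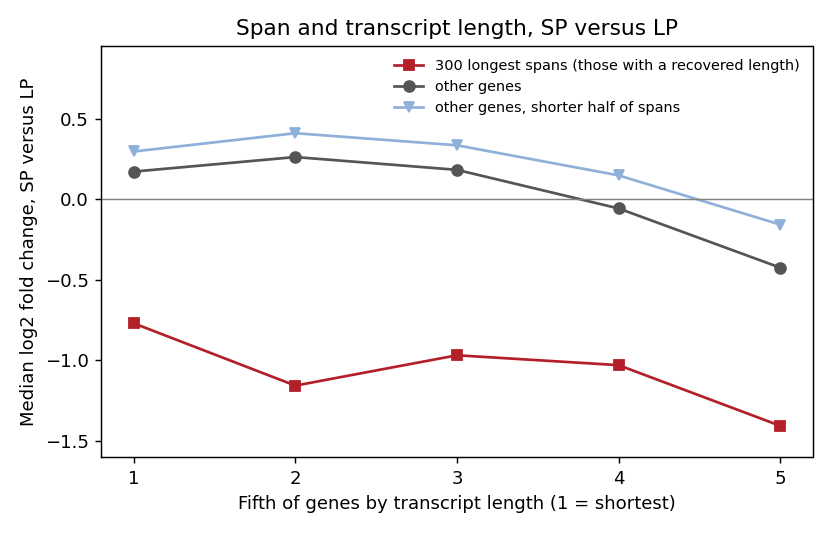
Median log2 fold change from LP to SP in 5 equal groups of genes by transcript length recovered from reads (1 is the shortest), for the 297 long-span genes with a recovered length (squares), the other genes (circles) and the other genes in the shorter range of spans (triangles). The long-span genes lie between -0.77 and -1.41 and are below the other genes in each of the 5 groups.

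The comparison of Migrant with LP placed wild migratory butterflies beside laboratory butterflies in long days. It shares the LP libraries with the comparison above. Of the long-span genes, 197 were lower in Migrant and 23 higher (limma), where 63.4% of all tested genes were lower and 7.64% higher. With median-ratio scaling of the libraries the split was 98 lower and 76 higher. That scaling moved the median log2 fold change of all tested genes from -0.39 to -0.02. The long-span median was -0.43 against -0.37 in the matched genes, and after scaling it differed by -0.02 from the median of all genes. Without scaling, the shares called lower and higher were close to those of the other genes. The difference between long-span and matched medians was -0.05, and -0.10 without Migrant ZT22 replicate 1, the library that stands apart. By time it ran from -0.18 at ZT13 to 0.21 at ZT22, the time of that library, and was below 0 at 6 of 8 times.

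The Migrant libraries lay wholly below the LP libraries in 87 long-span genes (29.0%) and wholly above in 4 (1.33%). Of all tested genes 22.9% and 0.929% were separated in this way, and of the matched genes 20.5% and 1.04%. These counts use FPKM without scaling, and so carry the shift of all tested genes, whose median log2 fold change was -0.39. Some single long-span genes nevertheless differed widely between Migrant and LP. DPOGS212994 (DPSCF300024, 466264 to 682427), the third longest span, was at 11.4 to 18.4 FPKM in LP, against 0.205 to 2.51 in Migrant, with medians of 14.1 and 1.27. Its groups did not overlap, and the log2 fold change was -2.82 ± 0.11 (SE, limma adjusted p = 3.48e-17), on 5.87 reads per Migrant library and with 5 overlapping loci. DPOGS211459 (DPSCF300223, 150965 to 182984) was at 308 to 707 FPKM in LP, against 69.5 to 263 in Migrant, with medians of 474 and 107, and its log2 fold change was -2.13 ± 0.15 (limma adjusted p = 3.29e-12). In the other direction, DPOGS209630 (DPSCF300015, 847171 to 876207) was at 10.7 to 22.1 FPKM in LP, against 40.0 to 168 in Migrant, with medians of 17.3 and 67.5. Its log2 fold change was 1.99 ± 0.15 (limma adjusted p = 1.06e-11), with every Migrant library above every LP library. The 168 here and the 263 of DPOGS211459 were both those of Migrant ZT22 replicate 1.

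Migrant was compared with SP to set the wild butterflies beside laboratory butterflies in a similarly short day. This comparison shares its libraries with both comparisons above. Of the long-span genes, 205 were higher in Migrant and 58 lower (limma), while of all tested genes 29.5% were higher and 52.2% lower and of the matched genes 32.8% and 49.4%. The median log2 fold change was 0.80 in the long-span genes and -0.23 in the matched genes. At least 2-fold higher were 129 long-span genes and at least 2-fold lower 15, where the matched genes had 16.48% and 18.15%. Migrant libraries lay wholly above SP libraries in 117 long-span genes and wholly below in 16, against 9.77% and 25.3% of all tested genes. The difference between the long-span and matched medians ranged from 0.91 at ZT19 to 1.16 at ZT22 over the 8 times.

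DPOGS205604 (DPSCF300167, 68841 to 98535) rose most from SP to Migrant. It was at 1.60 to 6.92 FPKM in SP and 103 to 242 in Migrant, with medians of 3.18 and 157, and LP lay between them at 18.6 to 85.4. No libraries of different groups overlapped, and the log2 fold change was 5.15 ± 0.17 (SE, limma adjusted p = 1.03e-19) from SP and 1.95 ± 0.17 (limma adjusted p = 1.53e-10) from LP. DPOGS206638 (DPSCF300048, 429941 to 482861) was at 0.387 to 5.85 FPKM in SP and 19.5 to 62.0 in Migrant, with medians of 1.57 and 52.0, and its log2 fold change was 4.13 ± 0.19 (limma adjusted p = 4.18e-17). The 19.5 was that of Migrant ZT22 replicate 1, where replicate 2 was at 56.3. The largest falls from SP were those of DPOGS211459, which was at 604 to 1536 FPKM in SP (-3.19 ± 0.15, limma adjusted p = 9.75e-17), and of DPOGS201450, at 0.210 to 6.75 FPKM in Migrant (-2.46 ± 0.23, limma adjusted p = 1.40e-10), on 11.0 reads per Migrant library.

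Each library was also given a single value, the median over the long-span genes of the deviation of log2(FPKM + 1) from each gene's mean over the 48 libraries, minus the same for the matched genes. This offset was 0.244 to 0.431 in LP (0.367 ± 0.053, SD, n = 16), 0.211 to 0.776 in Migrant (0.296 ± 0.133) and -1.03 to -0.291 in SP (-0.687 ± 0.214). Every SP library was below every library of the other groups. Without ZT22 replicate 1, the Migrant libraries reached 0.343. Median levels of the long-span genes were 16.6 to 20.4 FPKM in LP, 4.28 to 11.4 in SP and 13.4 to 16.9 in Migrant, while those of the matched genes were 15.1 to 16.3, 9.61 to 14.9 and 9.59 to 13.0. The long-span genes took 4.35% to 5.20% of the reads in LP, 1.43% to 2.70% in SP and 5.34% to 6.59% in Migrant.

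**Figure D3:**
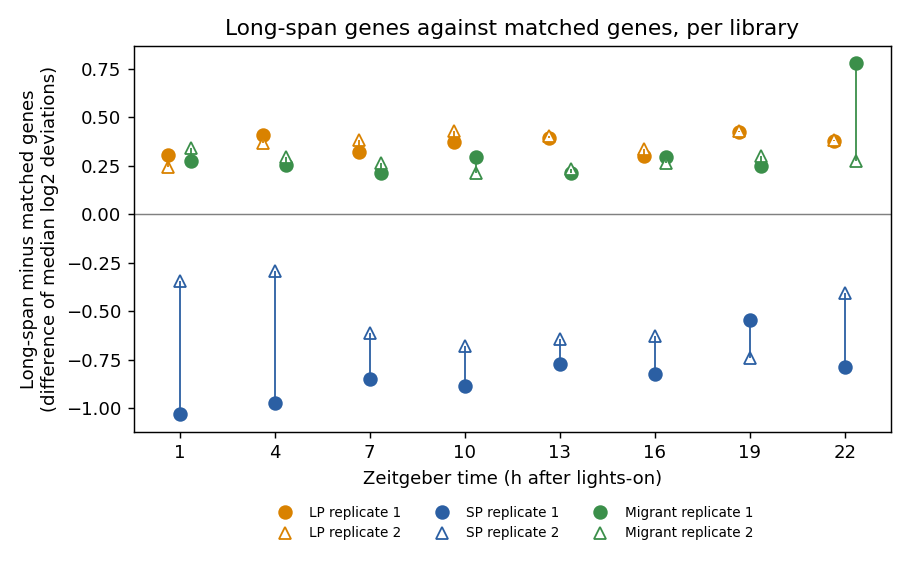
Offset of the long-span genes from other genes of like mean FPKM (difference of median log2 deviations, vertical axis) in each of the 48 libraries by zeitgeber time, with filled circles for replicate 1, open triangles for replicate 2 and a line joining the pools of a time. All 16 SP libraries lie at or below -0.291, and the LP and Migrant libraries at or above 0.211.

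The spread of the long-span genes also differed between groups. Around the mean of each time, the median residual SD of log2(FPKM + 1) was 0.13 in LP and 0.19 in Migrant but 0.51 in SP, against 0.15, 0.27 and 0.36 in the matched genes of the same groups. The offset of the pools of a time differed by 0.041 in LP and 0.051 in Migrant in the median of absolute values, and by 0.221 in SP. The fits estimated 1 spread per gene over all groups. On these medians, that understates the spread of SP and overstates those of LP and Migrant. In the shared fit, tests within LP or Migrant were thus strict for the long-span genes, and low shares of calls there carry that limit. With Migrant fitted alone, however, the replicate test described below still called 0 long-span genes.

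In SP, replicate 1 had the lower offset at 7 of 8 times. At ZT1 replicate 1 was at -1.03 and replicate 2 at -0.345, and at ZT4 they were at -0.971 and -0.291. At ZT19 the order was the opposite, with -0.546 in replicate 1 and -0.740 in replicate 2. The share of reads in the 10 most-read genes was higher in replicate 1 at the same 7 times. It was 12.0% and 8.30% at ZT1, 11.9% and 8.47% at ZT4, and 8.92% and 9.98% at ZT19. In Migrant, ZT22 replicate 1 had both the highest offset of its group, 0.776, and the highest such share, 9.17%, so that there the share and the offset were high together, whereas in SP a high share went with a low offset. The part of the most-read genes in these offsets was not tested.

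**Figure D4:**
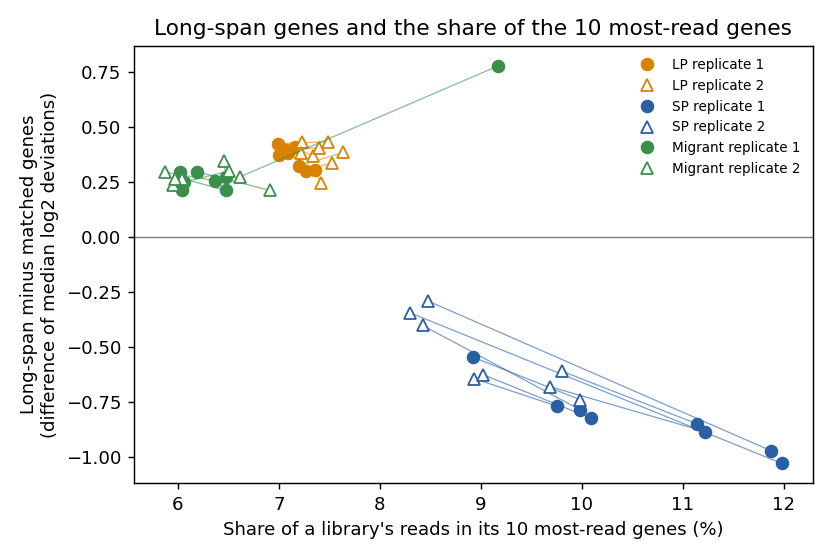
Offset of the long-span genes (vertical axis) against the share of a library's reads in its 10 most-read genes (percent, horizontal axis), with a line joining the pools of a time. SP libraries run from a share of 8.30% with an offset of -0.345 to 12.0% with -1.03, and Migrant ZT22 replicate 1 stands alone at 9.17% and 0.776.

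Gene by gene, 217 long-span genes were lower and 4 higher in SP replicate 1 than in replicate 2 (limma), where 34.8% of all tested genes were lower and 8.6% higher and 39.6% and 6.74% of the matched genes. The median log2 difference was -0.48 in the long-span genes, -0.22 in the matched genes and -0.42 in the 300 genes next in span. The long-span median was -0.32 with median-ratio scaling and -0.19 with quantile normalization, which brought that of all tested genes from -0.16 to -0.01 and 0.02. With SP fitted alone, and so with its own larger spread, 26 were lower and 2 higher, where 5.34% of all tested genes were lower and 1.45% higher. With quantile normalization 108 were lower and 19 higher, and 219 of the 300 lay below the median of all tested genes. Shares of all tested genes called with that normalization are not given. The SP replicates are labelled male and female, and labelled sex cannot be told apart from other differences between the pools. In LP, 5 long-span genes were lower and 1 higher in replicate 1 (0.843% and 0.378% of all tested genes), or 35 and 32 with LP fitted alone, where 8.89% of all tested genes were lower and 7.94% higher. In Migrant 0 passed in either direction, where 0.808% of all tested genes were lower and 0.0774% higher. At an unadjusted p under 0.05 there were 17 (5.67%), against 11.3% of all tested genes (limma). With Migrant fitted alone 0 passed as well, where 0.086% of all tested genes were lower and 0.0344% higher.

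DPOGS203984 (DPSCF300005, 1131241 to 1165900) had the clearest difference between SP replicates. It was at 2.51 to 4.53 FPKM in the 8 libraries of replicate 1 and 6.27 to 10.7 in those of replicate 2, without overlap, and the log2 difference was -1.01 ± 0.12 (± SE, adjusted p = 5.28e-06 by limma). In LP it was also lower in replicate 1, at 9.13 to 12.5 against 12.2 to 18.2 FPKM (-0.54 ± 0.12, limma adjusted p = 0.0153). In Migrant it did not pass, at 4.37 to 11.9 against 7.03 to 9.09 FPKM (-0.40 ± 0.12, limma adjusted p = 0.13). The 11.9 there was that of the outlying ZT22 replicate 1. Replicate 1 is labelled female in LP and Migrant and male in SP. DPOGS215727 (DPSCF300041, 336850 to 383272) had the smallest adjusted p among the falls in LP, at 8.57 to 11.7 FPKM in replicate 1 and 13.0 to 16.0 in replicate 2 (-0.56 ± 0.11, limma adjusted p = 0.00659). It was lower in replicate 1 in SP as well (-0.66 ± 0.11, limma adjusted p = 0.000252), but did not pass in Migrant (-0.06 ± 0.11, limma adjusted p = 0.93). DPOGS216186 (DPSCF300080, 458098 to 488534) was higher in SP replicate 1, at 27.0 to 45.5 against 21.0 to 37.0 FPKM, with overlap (0.41 ± 0.09, limma adjusted p = 0.00183), and its adjusted p was 0.0579 with SP fitted alone. DPOGS210300 (DPSCF300305, 75351 to 105829) was the long-span gene that was higher in LP replicate 1, at 7.17 to 11.1 against 5.75 to 7.06 FPKM (0.39 ± 0.08, limma adjusted p = 0.00663).

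Whether the replicate difference itself differed between groups was tested directly. Between SP and LP it differed in 136 long-span genes, with 131 lower in SP and 5 higher (limma), where 20.9% of all tested genes differed, 16.9% lower and 3.95% higher. Between Migrant and SP it differed in 111 (15.8% of all tested genes). It was higher in Migrant in 110 and lower in 1, where 11% and 4.81% of all tested genes were. Between Migrant and LP it differed in 0 long-span genes (limma) and in 0.0774% of all tested genes. At an unadjusted p under 0.05 there were 11 (3.67%), against 9.32% of all tested genes. These counts rested on few pools. Shares of all tested genes are not given for the fits that follow. A shift of the whole table thus cannot be told apart there from a shift of the long-span genes. Without either pool of SP ZT1 the count lower in SP than in LP was 1, without those of SP ZT4 it was 1 or 2, and without those of SP ZT19 it was 200. The count higher in Migrant than in SP was 4 without SP ZT1, 3 without SP ZT4, 36 without SP ZT22 and 204 without SP ZT19, and it was 0 with the compared groups fitted alone.

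Calls of a daily rhythm were rare among all tested genes, and among the long-span genes too. A 24 h rhythm was tested in each group (limma, F-test on a cosine and a sine). Of all tested genes, 0.447% passed with the LP libraries, 0.929% with SP and 1.52% with Migrant. The matched genes had shares of 0.43%, 0.893% and 1.35%. The long-span genes that passed were 1 with LP (0.333%), 2 with SP (0.667%) and 2 with Migrant (0.667%). At an unadjusted p under 0.05 there were 3 in LP (1.0%), against 2.67% of all tested genes, 24 in SP (8.0%), against 8.74%, and 22 in Migrant (7.33%), against 15.6%. Their median log2 amplitude in LP was 0.06, as in the matched genes. In SP it was 0.15 against 0.14, and in Migrant 0.12 against 0.14. The offset of the long-span genes, averaged over the pools of a time, ranged over 0.153 in LP and 0.188 in SP. In Migrant it ranged over 0.300, with the highest mean, 0.524, at ZT22, the time of the outlying library, and the next highest, 0.308, at ZT1. The pools of a single time differed by 0.041 in LP, 0.051 in Migrant and 0.221 in SP in the median of absolute values. A range over 8 times and a median difference between pools are unlike measures. Whether the offset changed with time of day was not tested.

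DPOGS215419 (DPSCF300088, 761053 to 792085) passed in all 3 groups. In LP the mean of its pools was 29.0 FPKM at ZT1, 34.8 at ZT4, 29.1 at ZT7, 44.9 at ZT10 and 55.6 at ZT13, and then 55.4, 56.8 and 53.4 at ZT16, ZT19 and ZT22. In SP it was at 8.50, 7.20, 8.30 and 9.71 FPKM from ZT1 to ZT10, then at 16.2, 14.4 and 15.7 from ZT13 to ZT19 and at 10.1 at ZT22. In Migrant it was lowest at ZT4, at 11.2 FPKM, and highest at ZT13, at 40.8. High values thus fell in the dark or late in the light, on a level that was lowest in SP at every time.

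The fitted log2 amplitudes of DPOGS215419 were 0.51 in LP with a peak at ZT16.5 (limma adjusted p = 0.0140), 0.55 in SP with a peak at ZT15.9 (limma adjusted p = 0.00352) and 0.74 in Migrant with a peak at ZT14.8 (limma adjusted p = 2.68e-05), each with an SE of 0.10. Whether amplitude or peak differed between the groups was not tested. The call in LP was lost without LP ZT4 replicate 2 (limma adjusted p = 0.0714) or LP ZT7 replicate 1 (0.0663). The call in SP was lost with SP fitted alone (limma adjusted p = 0.111) and with quantile normalization (0.0706). An F-test over the 8 times, which assumes no shape, ended the calls in LP (limma adjusted p = 0.877) and SP (0.426) but not in Migrant (0.0182).

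**Figure D5:**
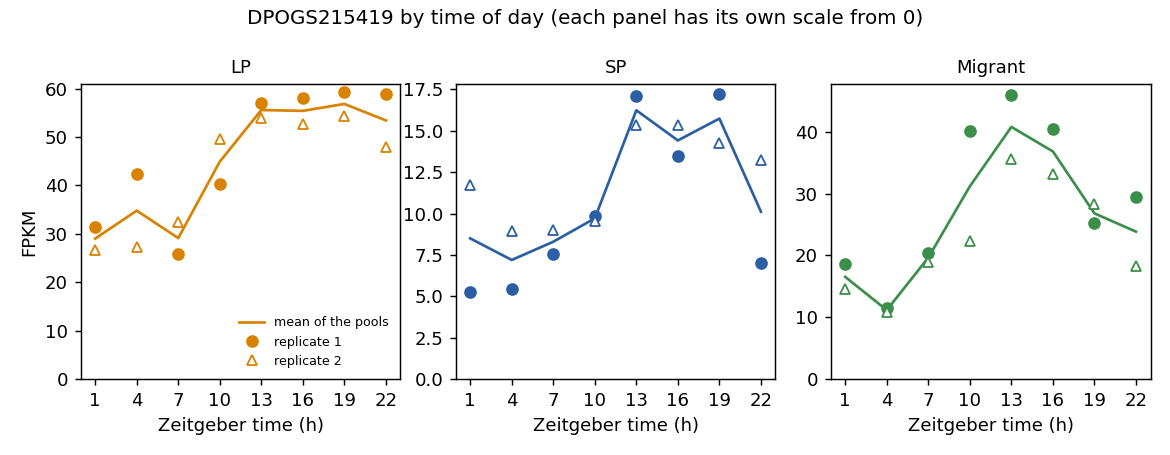
FPKM of DPOGS215419 by zeitgeber time in LP, SP and Migrant, each panel on its own axis from 0, with filled circles for replicate 1, open triangles for replicate 2 and a line through the mean of the pools. The means are highest at ZT19 in LP (56.8) and at ZT13 in SP (16.2) and Migrant (40.8), and lowest at ZT1 in LP and at ZT4 in SP and Migrant.

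The other rhythms were smaller. DPOGS200190 (DPSCF300360, 44532 to 80356) had a mean of 41.3 FPKM at ZT10 and 62.3 at ZT22 in SP, with a fitted log2 amplitude of 0.25 ± 0.05 and a peak at ZT23.1 (SE, limma adjusted p = 0.0284). Its amplitude was 0.16 in LP and 0.17 in Migrant, where it did not pass. Leaving out any of 6 single SP libraries (ZT1 replicate 2, ZT7 replicate 1, ZT10 replicate 1, ZT13 replicate 2, ZT19 replicate 1 or ZT22 replicate 2) ended the call, with limma adjusted p of 0.0511 to 0.170. It also ended with SP fitted alone (limma adjusted p = 0.556) and with the F-test over times. DPOGS214481 (DPSCF300122, 244614 to 273885) had a mean of 96.1 FPKM at ZT13 and 187 at ZT22 in Migrant, with a log2 amplitude of 0.38 ± 0.06 and a peak at ZT0.125 (limma adjusted p = 0.00109). The ZT22 mean includes the outlying replicate 1, and without that library the amplitude was 0.31 and the call remained. With Migrant fitted alone the limma adjusted p was 0.129.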

How the data were processed

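RNA was sequenced from 48 libraries, 16 per group. Per the submitters' processing notes, reads went through CASAVA 1.8.2, TopHat2 and Cufflinks, and the authors deposited FPKM values with confidence limits per gene; other versions and the genome build are not given in the sources used here. No identifier (0) matched the RefSeq gene table used here.

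Span is locus end minus start. Reads per gene were recovered from FPKM and its upper confidence limit; 83.0% to 85.6% of values under 30 reads lay within 0.05 of a whole number, so no count test was run. Transcript length is reads per FPKM, relative to the median gene, from libraries with 10 or more reads of a gene.

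Values were log2(FPKM + 1). Genes with mean FPKM of 0.5 or more (11630) were fitted with limma 3.58.1 (R 4.3.3, trend and robust, Benjamini-Hochberg) over all 48 libraries, with a mean for each of 24 combinations of group and time, a 24 h cosine and sine per group, or replicate differences per group. Matched values weight the other genes with mean FPKM of 2 or more to the long-span genes over 10 bins of mean FPKM, with no test. Tables and plots used Python 3.11.15, pandas 2.3.3 and matplotlib 3.10.9.

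The long-span genes and the comparisons were chosen with earlier results of these data known. Named genes are those with the longest and second span and those at either side of the threshold, the 2 largest rises and falls among called genes with 1 direction at all 8 times, and the smallest adjusted p for rhythm and for each direction of the replicate difference. The alternatives of at least 20 reads per library and of a single replicate number were added after the data were seen.

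In simulated data with 200 of 11630 genes changed by 0.5 on the log2 scale, the share recovered was 62.5% (SP against LP), 70% (Migrant against LP) and 65% (Migrant against SP). Rhythms of that amplitude were recovered in 56% (LP), 64% (SP) and 62.5% (Migrant), replicate differences in 29% to 35%, and differences of replicate differences in 8.5% to 14%. The simulation gave each gene 1 spread.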

Additional observations from a re-analysis of the deposited data

Results flagged for a closer look

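The difference between replicate 1 and replicate 2 differed between SP and LP in 136 long-span genes, and between Migrant and SP in 111 (limma test of the difference, adjusted p under 0.05). Both counts involve the SP libraries, whose pools of a time stood further apart than those of the other groups, and whose replicate 1 is labelled male where that of LP and Migrant is labelled female. Leaving out the pools of SP ZT1 or SP ZT4 left between 1 and 4 of the main direction in either count. Shares of all tested genes without those pools are not given.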

How the results depend on the processing

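No called value changed sign under the alternatives run. Left out 1 at a time, libraries changed the SP versus LP counts to 28 to 30 higher and 253 lower, the Migrant versus LP counts to 22 to 24 and 193 to 207, and the Migrant versus SP counts to 202 to 213 and 56 to 60. SP versus LP had 44 higher with quantile normalization. Migrant versus LP had 76 higher and 98 lower with median-ratio scaling and 81 and 108 with quantile normalization. The SP minus LP difference between long-span and matched genes was -1.21 without matching, -0.96 with matching on transcript length, -1.03 for 600 genes, -1.21 with a pseudocount of 0.1, -1.23 without overlapping loci, and -1.22 and -0.99 with replicate number 1 or 2 alone (left out, -1.15 to -1.08). That of Migrant minus SP was 1.17 without matching, 1.11 with matching on LP levels, 0.88 on transcript length, 1.13 with a pseudocount of 0.1, 1.16 without overlapping loci, and 1.21 and 0.85 by replicate number (left out, 0.98 to 1.09). That of Migrant minus LP was -0.10 to -0.01 with libraries left out. The replicate difference of long-span from matched genes was then -0.02 to -0.01 in LP, -0.32 to -0.20 in SP and -0.02 to 0.07 in Migrant.

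Replicate counts moved most, and the cause was not tested. For these alternatives, shares of all tested genes are given above only for replicate tests in a group fitted alone. In LP, fitted alone, 32 were higher and 35 lower; 5 were higher with quantile normalization and 3 lower with median-ratio scaling (left out, 1 to 4 and 1 to 13). In SP, 20, 19 and 2 were higher with median-ratio scaling, quantile normalization and SP fitted alone, and 108 and 26 lower with the last 2 (left out, 3 to 10 and 171 to 232). In Migrant, 1 was higher with either scaling and 1 lower with a pseudocount of 0.1 (left out, 0 to 1 and 0 to 4). The replicate difference of SP from LP was higher in 2 without a filter, 12 with median-ratio scaling, 3 with quantile normalization and 9 in the groups alone, and lower in 87 and 36 with those scalings (left out, 0 to 12 and 1 to 200). That of Migrant from SP was higher in 48 with quantile normalization and 0 in the groups alone, and lower in 4 with median-ratio scaling and 0 in the groups alone (left out, 3 to 204 and 0 to 9).

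Rhythms were called in 3 long-span genes in LP and 0 in SP with each group fitted alone, in 4 in SP with median-ratio scaling, in 11 in Migrant with quantile normalization, and in 0 in LP and in SP with an F-test over times (left out, 0 to 1 in LP, 1 to 4 in SP and 2 to 5 in Migrant). The replicate numbers did not pair the libraries: over 24 pairs of groups and times, replicate differences correlated at -0.12 to 0.16 (median 0.04). With a replicate block, 254 long-span genes were lower and 29 higher in SP than in LP, and no other count moved by over 1.5 times. Of the named genes' values under alternatives, 1157 kept their call and 16 lost it.

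Depth limits genes with few reads: 12 long-span genes averaged under 10 reads per library. Differences of replicate differences at 0.5 on the log2 scale were seldom recovered in simulation, so their absence says little.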
